A study of Acipenser schrenckii with 6 samples.

Results

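Butyrophilin and butyrophilin-like proteins, erythroid membrane-associated proteins (ERMAP) and the B7-type ligands CD276, V-set domain-containing T-cell activation inhibitor 1 (VTCN1) and the PD-1 ligands were followed in the gut of Amur sturgeon (Acipenser schrenckii). Members were the features whose annotated product names one of these proteins, or a protein of selection and upkeep of intraepithelial T-cells, and 147 of the 82023 features in the deposited expression table qualified. They comprised 49 butyrophilin subfamily 1 loci, 11 of subfamily 2, 6 of subfamily 3, 9 other butyrophilin or butyrophilin-like loci, 9 ERMAP-like loci, 3 VTCN1 loci, 3 PD-1 ligand loci and 57 CD276 loci, while 0 features carried the intraepithelial T-cell upkeep name. The names are those of the annotation, and for most loci they mark similarity to a mammalian protein, not orthology.

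The fish were artificially bred, of similar genetic background and kept in net cages ahead of their release to a river. For 30 days 1 group received commercial feed and the other fresh Limnodrilus, an aquatic oligochaete worm that had been grown in the water source of the fish. The study asked whether this feeding changed gene expression, and poly(A) RNA of gut tissue was sequenced in 3 libraries per diet. The sources used here give neither the age of the fish nor how many were used per library. The p-values therefore reflect only how these libraries varied, which may in part be technical.

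Butyrophilins are membrane proteins of the immunoglobulin superfamily. In mammals many of them carry an intracellular B30.2 domain, which is shared with TRIM proteins, and members of subfamilies 2 and 3 in humans, and butyrophilin-like proteins of the gut epithelium in mice and humans, act on gamma delta T cells. ERMAP has the same plan and is known in humans and mice from erythroid cells, where it carries antigens of the human Scianna blood group system. CD276, VTCN1 and the PD-1 ligands are related ligands of the B7 family that are known in mammals mainly for restraining T cells.

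Levels are FPKM, fragments per kilobase of feature length scaled to the library total, as the authors deposited them, so loci of different length can be set side by side. Whole reads recovered from FPKM and length summed to 9.95 to 10.5 M in the commercial feed group and 13.9 to 19.7 M in the Limnodrilus group, and depth therefore differed with diet. A read was found for 89, 88 and 112 members in commercial feed libraries 1, 2 and 3 and for 124, 140 and 131 in Limnodrilus libraries 1, 2 and 3. With every library thinned to the total of the smallest, the numbers were 89, 88, 112, 123, 139 and 127. Over the whole table, without thinning, 32090, 31269 and 33771 features were above 0 with commercial feed. With Limnodrilus they were 36554, 37162 and 37401. Thinned numbers were counted for members only, so the gap cannot be called particular to the family. Totals include mitochondrial reads, of which commercial feed library 1 had the largest share, so depth over other features was not equal. Of the members, 4 were at 0 in every library, 60 averaged at least 1 FPKM over the 6 libraries and were tested, and 87 were not tested. Of the 60, 16 averaged under 1 FPKM with commercial feed and 6 under 1 FPKM with Limnodrilus. These were tested only through the diet in which they were high, and counts among the tested members describe those loci and not the whole family.

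The commercial feed libraries stood apart from each other. Library 1 had 23.7% of its reads on the mitochondrial sequence, against 2.06% to 6.42% in the other 5. The T cell and intraepithelial lymphocyte markers summed to 10.5, 32.4 and 112 FPKM with commercial feed (libraries 1, 2 and 3) and to 19.8, 22.4 and 34.7 FPKM with Limnodrilus. Smooth muscle markers ran the other way, with 8300, 5160 and 686 FPKM against 3380, 2330 and 2470. Library 3 of the commercial feed group was therefore high in lymphocyte and low in muscle markers. Every gut library contained enterocyte markers, at levels that differed between the diets. The intestinal fatty acid-binding protein locus LOC117409347 was at 31.5, 93.5 and 749 FPKM with commercial feed and at 1290, 7430 and 2960 FPKM with Limnodrilus. In bulk tissue, fewer cells of a type and less RNA per cell cannot be told apart.

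Diets were compared with limma-trend on log2(FPKM + 1), and a feature passed at a Benjamini-Hochberg adjusted p under 0.05 over all 23644 features tested. Of the 60 tested members, 15 rose with Limnodrilus and 2 fell, while 14% of all tested features rose and 3.64% fell. The 15 rises were 7 loci of butyrophilin subfamily 1, 3 of subfamily 3, 2 butyrophilin-like protein 1 loci, 2 CD276-like loci and 1 of subfamily 2. Of these 15 loci, 6 averaged under 1 FPKM with commercial feed and were tested only through their Limnodrilus level. The 2 falls were an ERMAP-like locus and a butyrophilin-like protein 2 locus. Fold changes are differences of mean log2(FPKM + 1), with commercial feed subtracted from Limnodrilus. Their median was 0.94 over the tested members and 0.24 over all tested features. Among features averaging at least 5 FPKM it was 0.07 over 26 members and 0.31 over all features, so the better expressed members did not share the lean. A further 13 members with fold changes above 0 and 4 below 0 had an unadjusted p under 0.05 without passing. Over all 23644 features, 8109 had an unadjusted p under 0.05, of which 4182 passed. Libraries of the diets did not overlap for 27 tested members that were higher and 6 that were lower with Limnodrilus, where the shares over all features were 28.4% and 11.5%.

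These counts depended on scaling and on single libraries. Under quantile normalization 12 members rose and 4 fell, beside 9.72% and 6.95% of all features. Under median-of-ratios scaling 12 rose and 2 fell, beside 9.46% and 6.31%. Limma-voom on the recovered reads gave 8 and 2, beside 7.35% and 5.6%. Over all features the split was 3321 higher and 861 lower as deposited and 2237 higher and 1492 lower under median-of-ratios scaling, which brought the median fold change of all features to 0.01 and that of the tested members to 0.74. Without Limnodrilus library 1, 2 or 3 the members passing were 1, 2 and 1, all higher, and the features passing were 739, 707 and 638 in place of 4182 (17.7% of all tested). Without commercial feed library 1, 8 members rose and 4 fell, without library 2, 6 rose and 0 fell, and without library 3, 29 rose and 3 fell. The features passing in these 3 fits were 3438, 1862 and 6295, so the number of calls moved with the omitted library over all features as well. With library 3 as the only commercial feed library, the median log2 fold change was 0.41 over the tested members and 0.08 over all features. That lone library is assumed to vary like the Limnodrilus libraries.

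**Figure D1:**
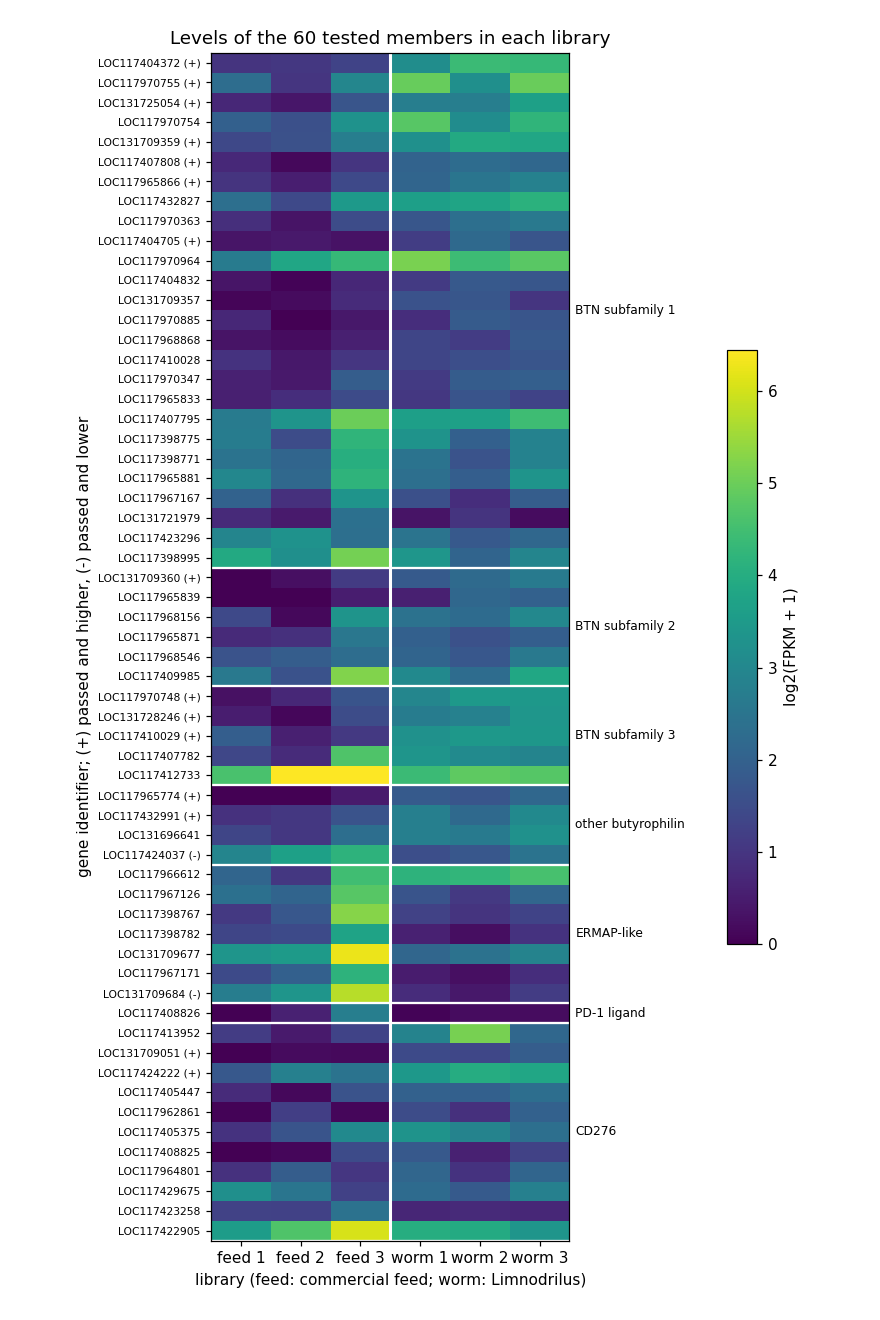
Heat map of log2(FPKM + 1) for the 60 tested members (rows, by class and by fold change within a class) in the 6 libraries (columns), with brighter colours for higher levels and passing members marked (+) or (-). Commercial feed library 3 is the brightest of its diet in 36 of the 41 tested butyrophilin loci, and 6 of the 7 ERMAP-like loci are brightest in commercial feed library 3.

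Loci named after butyrophilin subfamily 3, whose human members are known from phosphoantigen recognition by gamma delta T cells, had the highest median log2 fold change of the butyrophilin classes, 2.18 over 5 tested loci of 6. The 3 tested loci annotated as member A1-like rose, and another of that name, LOC117404952, reached 0.249 FPKM at most and was not tested. Over all tested features 14% rose. LOC117970748 (NC_081231.1, 9655261 to 9696961) was at 0.222, 0.653 and 2.19 FPKM in commercial feed libraries 1, 2 and 3 and at 6.81, 10.1 and 9.92 FPKM in Limnodrilus libraries 1, 2 and 3, for a log2 difference of 2.40 ± 0.41 (SE; limma adjusted p = 0.013). Every Limnodrilus library lay above every commercial feed library, and within the commercial feed group library 3 was highest. LOC117410029 (NC_081236.1, 7887138 to 7909802) was at 2.79, 0.484 and 1.09 FPKM against 8.54, 9.78 and 9.63, with a log2 fold change of 2.18 ± 0.39 (limma adjusted p = 0.0144). LOC131728246 (NW_026707759.1, 75498 to 130654) was at 0.425, 0.0735 and 1.85 FPKM against 5.56, 6.13 and 9.48, with a log2 fold change of 2.27 ± 0.43 (limma adjusted p = 0.0159). At each of these 3 loci the lowest Limnodrilus library was above the highest commercial feed library. All 3 calls held without any 1 commercial feed library and were lost without any 1 Limnodrilus library, with adjusted p of 0.0503 to 0.07 and log2 fold changes of 1.87 to 2.79 over the 6 omissions.

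The most abundant locus of the whole family belonged to the same class and did not share this direction. LOC117412733 (NC_081211.1, 20421992 to 20435072), annotated as subfamily 3 member A2-like, was at 23.1, 86.5 and 85.3 FPKM with commercial feed against 19.9, 27.9 and 26.1 FPKM with Limnodrilus. Commercial feed library 1 lay among the Limnodrilus libraries and the other 2 above all of them. Its log2 fold change was -1.16 (95% interval -2.42 to 0.10, limma adjusted p = 0.177), and it passed as lower without commercial feed library 1 (-1.77, adjusted p = 0.0229). It supplied 12.6%, 33.7% and 11.2% of the summed FPKM of the 147 members in the commercial feed libraries, where it ranked first each time, and 5.14%, 7.13% and 5.49% in the Limnodrilus libraries. The member A3-like locus LOC117407782 was at 1.57, 0.724 and 24.6 FPKM against 9.22, 7.51 and 6.56, so that commercial feed library 3 was above and libraries 1 and 2 below the Limnodrilus group (adjusted p = 0.551).

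Butyrophilin subfamily 1, named for the mammalian milk fat globule protein BTN1A1, was the largest butyrophilin class. Of its 26 tested loci 7 rose, 0 fell and 19 did not pass, beside 14% higher and 3.64% lower over all tested features. In this class 19 fold changes were above 0, and the median log2 fold change was 1.09. LOC117404372 (NC_081244.1, 3454467 to 3466105) was at 0.963, 1.08 and 1.46 FPKM with commercial feed against 8.0, 20.1 and 19.1 FPKM with Limnodrilus. The commercial feed libraries lay close together and all well below the Limnodrilus group, and the log2 fold change was 2.86 ± 0.40 (SE; limma adjusted p = 0.00903), the largest rise of any tested member. It also passed in each of the 6 fits that left out 1 library, with log2 fold changes of 2.64 to 3.26, and was the one member to do so.

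The other named rises of this class were smaller or more variable. LOC131725054 (NC_081248.1, 265949 to 346546) was at 0.636, 0.311 and 2.25 FPKM against 5.74, 5.80 and 11.7, for a fold change of 2.13 ± 0.45 on the log2 scale (limma adjusted p = 0.0205). LOC131709359 (NC_081231.1, 8501495 to 8592273) was at 1.63, 2.03 and 5.77 FPKM against 8.39, 14.2 and 13.0, for 1.74 ± 0.44 on the same scale (limma adjusted p = 0.0341). In both, commercial feed library 3 came nearest to the Limnodrilus libraries without reaching them. LOC117407808 (NC_081247.1, 492399 to 579986) was at 0.667, 0.0923 and 1.01 FPKM against 3.15, 3.85 and 3.42, and LOC117965866 (NC_081239.1, 5156321 to 5643106) at 0.963, 0.448 and 1.67 against 3.29, 4.64 and 6.18. The limma adjusted p was 0.0225 and 0.0294. With no filter on low values LOC131709359 (adjusted p = 0.0599) and LOC117965866 (0.0602) did not pass, and with limma-voom LOC117407808 (0.0659) and LOC117965866 (0.062) did not. LOC117404705 was also called, at 0.249 to 0.35 FPKM against 1.25 to 3.63. The remaining call of the class, LOC117970755 (log2 fold change 2.29 ± 0.65, limma adjusted p = 0.049), is described below with its neighbours on the genome. Of the 7 calls 3, 1 and 7 remained without commercial feed library 1, 2 or 3, and 1 remained without any 1 Limnodrilus library, with log2 fold changes of 1.06 to 3.26 throughout and adjusted p of 0.0535 to 0.16 where the call was lost.

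Other abundant loci of subfamily 1 did not pass. LOC117970964 (NC_081236.1, 1017673 to 1023693), the most abundant of the class, was at 5.43, 13.1 and 19.1 FPKM against 34.6, 20.3 and 26.8, with the diets apart by the narrow gap between commercial feed library 3 and Limnodrilus library 2 (log2 fold change 1.18, 95% interval 0.07 to 2.29, limma adjusted p = 0.127). It passed without commercial feed library 3 (1.54, adjusted p = 0.0417) and had its lowest fold change without commercial feed library 1 (0.71, adjusted p = 0.225). LOC117407795 was at 5.43, 9.15 and 31.3 FPKM against 11.5, 11.6 and 20.7, where commercial feed library 3 lay above and libraries 1 and 2 below the Limnodrilus group (log2 fold change 0.23, 95% interval -1.17 to 1.63).

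In subfamily 2, 1 of 6 tested loci rose and 5 missed the threshold, where 14% of all tested features rose. The median log2 fold change of the class was 0.67. LOC131709360 (NC_081231.1, 8619278 to 8804058), annotated as member A2-like, was at 0, 0.201 and 1.18 FPKM against 2.57, 3.72 and 5.17, with 0, 5 and 31 reads behind the commercial feed values and 89, 183 and 220 behind the others. The log2 fold change was 1.77 ± 0.40 (SE; limma adjusted p = 0.0254), and the call held in 1 of the 6 omissions, that of commercial feed library 3. It was lost with no filter (adjusted p = 0.0506) and with limma-voom (0.0594). The most abundant locus of the class, LOC117409985, was at 5.11, 2.10 and 36.3 FPKM against 7.38, 3.89 and 13.4, so its 95% interval of -2.13 to 1.96 left either direction possible.

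The butyrophilin-like loci moved in both directions. Both called loci of butyrophilin-like protein 1, a protein of gut epithelium in mice, were near 0 or about 1 to 2 FPKM with commercial feed. LOC117965774 (NC_081241.1, 596173 to 604603) was at 0, 0 and 0.391 FPKM against 2.56, 2.27 and 3.48, or 0, 0 and 9 reads against 78, 98 and 130 (log2 fold change 1.74 ± 0.32, limma adjusted p = 0.0147). LOC117432991 (NC_081240.1, 913745 to 922905) was at 0.877, 1.05 and 2.16 FPKM against 5.88, 3.59 and 7.37 (1.48 ± 0.36, limma adjusted p = 0.0321), a call lost with no filter (0.0633) and with limma-voom (0.0703). A further butyrophilin-like protein 1 locus on the same sequence as the first, LOC131696641, was at 1.06 to 3.99 FPKM against 5.24 to 8.61 and did not pass (adjusted p = 0.0602). In contrast, LOC117424037 (NC_081207.1, 166773 to 171338), annotated as butyrophilin-like protein 2, which in mammals is known as an inhibitor of T cell activation, fell from 6.61, 11.6 and 16.9 FPKM to 1.94, 2.39 and 4.46 FPKM. All 3 commercial feed libraries were above the highest Limnodrilus library, and the log2 fold change was -1.66 ± 0.42 (SE; limma adjusted p = 0.035). That call held without commercial feed library 1 or 3 (-1.98 and -1.37) and was lost without commercial feed library 2 and without each Limnodrilus library (adjusted p of 0.0733 to 0.135), with TPM (0.0527) and with no filter on low values (0.0609). Of the 2 rises, 1 held without commercial feed library 1, 1 without library 2 and 2 without library 3, and 1 held without Limnodrilus library 2 and 0 without library 1 or 3.

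**Figure D2:**
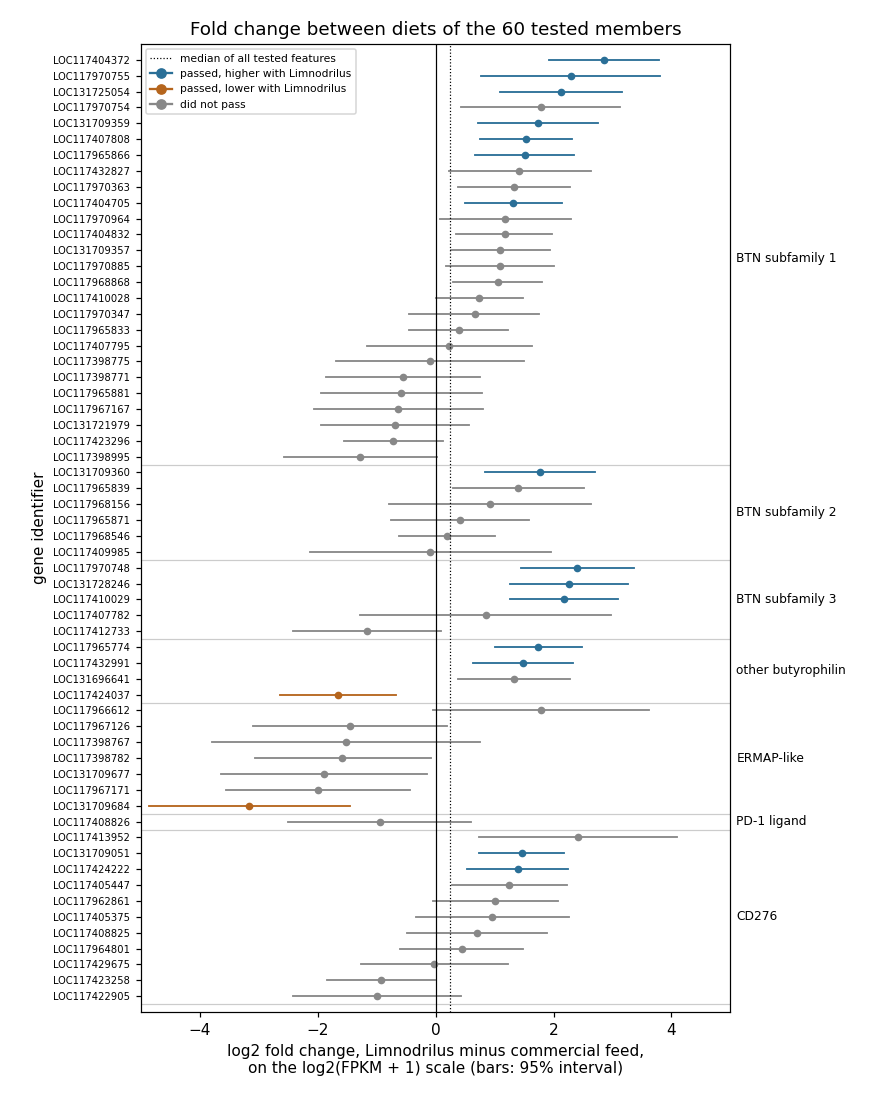
Log2 fold change of each of the 60 tested members, positive where Limnodrilus is higher and computed on log2(FPKM + 1), with 95% intervals from limma, grouped by class. The solid line marks 0 and the dotted line the median of all tested features (0.24). The 15 members that rose lie right of both lines, and the 6 ERMAP-like loci of sequence NC_081232.1 all lie left of 0.

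The ERMAP-like loci stood on the other side. All 6 loci of this name on sequence NC_081232.1 were tested, and all 6 had a fold change below 0, from -1.45 to -3.16, of which 1 passed. Over all tested features 3.64% fell. LOC131709684 (NC_081232.1, 7581759 to 7585658) fell from 5.70, 9.31 and 53.1 FPKM with commercial feed to 0.756, 0.326 and 1.23 FPKM with Limnodrilus, that is from 101, 159 and 956 reads to 18, 11 and 36. The lowest commercial feed library was several times above the highest Limnodrilus library, and the log2 fold change was -3.16 ± 0.73 (SE; limma adjusted p = 0.0267). The call held without commercial feed library 3, its highest sample, with a fold change of -2.26 (adjusted p = 0.0104), and without library 1 (-3.77). It did not hold without library 2 of that diet (-3.46, adjusted p = 0.0592) and without Limnodrilus library 1, 2 or 3 (-3.17, -2.97 and -3.35, adjusted p of 0.0781 to 0.104), and also with no filter on low values (adjusted p = 0.0553).

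The remaining 5 loci of that sequence were also highest in commercial feed library 3 and did not pass. Without that library their log2 fold changes stayed below 0 but shrank to between -0.23 and -1.18. LOC131709677 (NC_081232.1, 9005567 to 9042522), the most abundant ERMAP-like locus, was at 9.24, 10.4 and 75.5 FPKM against 3.35, 4.38 and 6.40 (log2 fold change -1.90, 95% interval -3.64 to -0.15, limma adjusted p = 0.12). LOC117967171 was at 1.72, 2.95 and 17.0 FPKM against 0.417, 0.196 and 0.793, and LOC117398782 at 1.53, 1.71 and 12.4 against 0.509, 0.19 and 0.926. In these 3 the diets did not overlap. LOC117398767 was at 1.10, 2.35 and 37.8 FPKM against 1.40, 0.956 and 1.47, and LOC117967126 at 4.19, 3.22 and 26.6 against 2.22, 1.11 and 3.34, both with overlapping diets. In every one of the 6 loci commercial feed library 3 was the highest of all 6 libraries. Their summed level was 23.5, 29.9 and 222 FPKM with commercial feed against 8.65, 7.16 and 14.2 FPKM with Limnodrilus. Commercial feed library 3 was also highest in T cell and macrophage markers, whose part in the ERMAP-like levels was not tested.

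An ERMAP-like locus elsewhere in the genome had another profile. LOC117966612 (NC_081242.1, 2772802 to 2791930) was at 3.30, 1.05 and 21.4 FPKM with commercial feed against 16.9, 18.0 and 22.9 FPKM with Limnodrilus, so that libraries 1 and 2 of the feed group lay below the Limnodrilus group and library 3 within it (log2 fold change 1.79, 95% interval -0.05 to 3.62, limma adjusted p = 0.155). It passed without commercial feed library 3, at 2.76 (adjusted p = 0.00852). The other 2 ERMAP-like loci, in a run of 5 members on the unplaced sequence NW_026707866.1, were not tested, and 1 of them was at 0 in every library. ERMAP-like loci took 15%, 12.5% and 32% of the family's summed FPKM with commercial feed, against 6.73%, 6.77% and 7.86% with Limnodrilus.

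Red cell markers were summed in the same libraries. The erythroid list (6 of 10 listed proteins matched, 18 features) summed to 30.0, 600 and 205 FPKM with commercial feed against 191, 355 and 105 FPKM with Limnodrilus. The highest sum was in commercial feed library 2 for this list and in library 3 for the ERMAP-like loci, and the part of red cell content in the ERMAP-like levels was not tested. Its most abundant feature, the hemoglobin subunit rho-like locus LOC117418556, was at 2.51, 333 and 84.6 FPKM against 81.9, 207 and 42.7. Of 7 tested features 1 rose, where 14% of all tested features rose. The rise was at the hemoglobin subunit beta-2-like locus LOC117418307, which was at 0 in all 3 commercial feed libraries and at 1.64, 9.00 and 2.40 FPKM with Limnodrilus. This locus was tested only through its Limnodrilus level, and its call held in 1 of the 6 omissions of a library.

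Members lay in runs on the genome. The 147 loci were on 45 sequences, and 36 of them on NC_081232.1, within 2.48 Mb. Counting members less than 500 kb apart as 1 run, that sequence held a run of 26 (6797121 to 8386606) with 19 CD276 and 4 ERMAP-like loci, and a run of 10 (9005567 to 9276901) with 7 subfamily 1 butyrophilins and 2 ERMAP-like loci. Other runs were 8 CD276 loci within 121 kb on NC_081229.1 and 6 CD276 loci within 73.4 kb on NC_081226.1. In 20 pairs the spans of 2 members overlap, 4 of them between tested members, and loci of these runs can be near-identical copies. The sources used here do not say how reads that match several places were counted, which makes the level of any one locus less certain.

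The run of 10 held neighbours with different fold changes. Within it, the span of the ERMAP-like locus LOC131709677 overlaps that of the butyrophilin locus LOC117398771 by 10262 bases. The same span overlaps the ERMAP-like locus LOC117967126 by 7864 bases. The 8 tested members of the run were all highest of the feed group in library 3. From 9005567 to 9200477 lay 6 of them with log2 fold changes of -1.90 to -0.10, and 0 passed. The best expressed butyrophilin among these, LOC117398995 (9114388 to 9124745), was at 14.1, 8.29 and 33.2 FPKM against 9.46, 3.21 and 6.68 (log2 fold change -1.28, 95% interval -2.57 to 0.02, limma adjusted p = 0.15). The last 2 loci of the run, both subfamily 1, had fold changes above 0. LOC117970755 (9246953 to 9256470) rose from 3.98, 0.99 and 6.82 FPKM to 8.32 FPKM in Limnodrilus library 2 and 30.3 FPKM in library 3, with library 1 just under library 3 (2.29 ± 0.65, SE; limma adjusted p = 0.049), and the adjacent LOC117970754 (9260797 to 9276901) was at 2.97, 1.96 and 8.70 FPKM against 26.5, 7.82 and 17.8 without passing (adjusted p = 0.0715). In both, Limnodrilus library 2 was the lowest of its group, as it was for the 6 ERMAP-like loci together. The call of LOC117970755 held without commercial feed library 3 and was lost without each of the other 5 libraries, with adjusted p up to 0.16, and under median-of-ratios scaling (adjusted p = 0.0635), quantile normalization (0.0579), limma-voom (0.0776), robust limma-trend (0.0516), a pseudocount of 0.1 (0.0584) and no filter (0.0863).

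Within each library the levels of these neighbours can be set against each other without reference to scaling. The 6 ERMAP-like loci of the sequence summed to 3.38, 10.1 and 14.3 times the 2 last butyrophilins with commercial feed, and to 0.153, 0.444 and 0.294 times with Limnodrilus. ERMAP-like transcripts were thus more abundant than these 2 loci in all 3 commercial feed libraries and less abundant in all 3 Limnodrilus libraries. The 10 butyrophilins of the sequence together summed to 34.5, 17.8 and 92.7 FPKM with commercial feed and 83.8, 28.3 and 72.9 FPKM with Limnodrilus. Against that sum the ERMAP-like loci were also the less abundant set in commercial feed library 1, at 23.5 FPKM. The 6 ERMAP-like loci and the 2 last butyrophilins were set side by side because of their fold changes. Their ratio is a description and has no test.

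**Figure D3:**
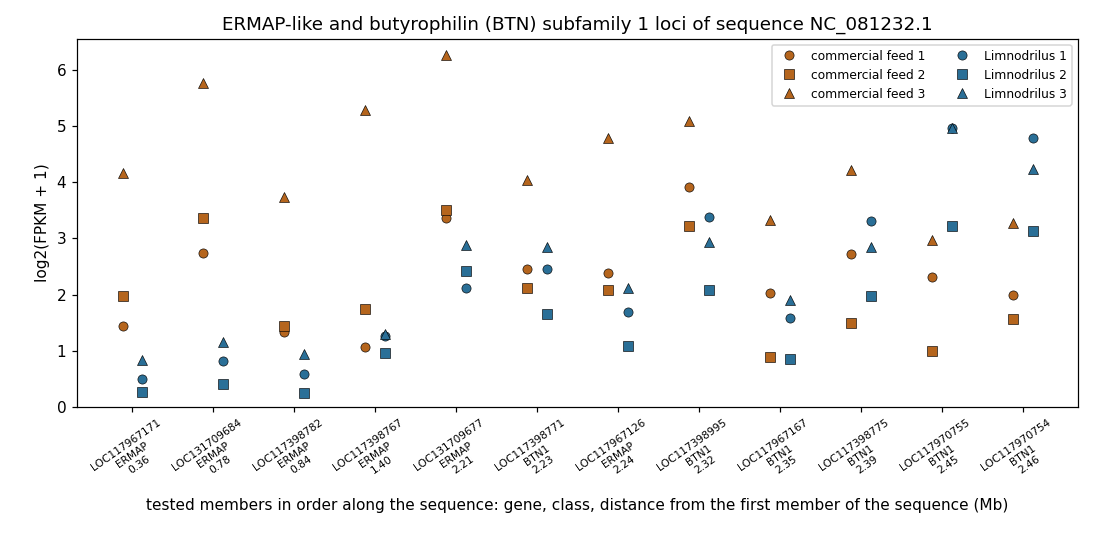
Levels, as log2(FPKM + 1), of the 12 tested members of sequence NC_081232.1 in order along the sequence (distance from its first member in Mb under each name), with 1 symbol per library and 1 colour per diet. The ERMAP-like loci have the commercial feed symbols above or among the Limnodrilus symbols, with library 3 on top, and the last 2 loci have the Limnodrilus symbols higher, except that Limnodrilus library 2 lies under commercial feed library 3 at LOC117970754 (7.82 against 8.70 FPKM).

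Features that are no members but lie between the first and last member of that sequence did not lean one way. Of 48 tested, 6 rose, 2 fell and 40 did not pass, where 14% of all tested features rose and 3.64% fell. The median log2 fold change was 0.15, against 0.24 over all tested features. Commercial feed library 3 was the highest of its diet for 30 of the 48, where the share over all tested features was 49.2%. Its median log2 difference from the mean of libraries 1 and 2 was 0.76, against 0.30 over all features. One of the 2 that fell was LOC131709663 (9101074 to 9135288), annotated as zinc-binding protein A33-like, a TRIM-type protein, whose span contains that of LOC117398995. It went from 43.0, 23.3 and 235 FPKM to 6.78, 6.40 and 8.61 FPKM, with the diets far apart and library 3 of the feed group highest (log2 fold change -2.94 ± 0.77, limma adjusted p = 0.0384), and it no longer passed once commercial feed library 1 was left out (-3.21, adjusted p = 0.0575) and without each Limnodrilus library (adjusted p of 0.104 to 0.125). The rises included fructose-bisphosphate aldolase A-like LOC131709678, a glycolytic enzyme, from 55.1, 35.6 and 32.2 FPKM to 213, 298 and 275 FPKM. These neighbours were chosen after their values were seen.

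CD276, a B7 family ligand found on many cell types in mammals, was the largest class of all, with 57 loci. Only 11 reached a mean of 1 FPKM, and of these 2 rose, 0 fell and 9 missed the threshold. Over all tested features 14% rose and 3.64% fell. The median log2 fold change of the class was 0.96. LOC131709051 (NC_081229.1, 2079312 to 2083143), in the run of 8, was at 0, 0.136 and 0.129 FPKM against 1.75, 1.58 and 2.73, or 0, 2 and 2 reads against 36, 46 and 69 (1.46 ± 0.31, SE; limma adjusted p = 0.0214). LOC117424222 (NC_081207.1, 2059943 to 2064515) was at 2.45, 6.04 and 4.47 FPKM against 9.86, 14.9 and 13.0 (1.40 ± 0.37, limma adjusted p = 0.0395). Of these calls 1, 1 and 2 remained without commercial feed library 1, 2 or 3 and 0 without any 1 Limnodrilus library, with adjusted p of 0.053 to 0.133 where lost. LOC117413952 had the largest fold change of the class without passing. Limnodrilus library 2 was at 34.0 FPKM and libraries 1 and 3 at 6.37 and 3.47, with 0.376 to 1.48 with commercial feed (2.42, 95% interval 0.74 to 4.10, adjusted p = 0.0561). The most abundant locus, LOC117422905 (NC_081205.1, 1763849 to 1775282), was at 10.8, 24.4 and 65.5 FPKM against 15.1, 14.3 and 9.22, with commercial feed library 1 among the Limnodrilus values (-1.0, 95% interval -2.42 to 0.43). Of the 46 CD276 loci not tested, 2 were at 0 everywhere, and the highest single value was 2.20 FPKM. Another 12 were at 0 in all commercial feed libraries and above 0 in a Limnodrilus library. Over all 17388 untested features above 0 in a library, 22.8% were at 0 in all commercial feed libraries, and the Limnodrilus libraries were deeper.

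The ligands best known from T cell checkpoints were scarce. The PD-1 ligand 1-like locus LOC117408826 (NC_081190.1, 55407454 to 55442743) was at 0, 0.519 and 5.72 FPKM with commercial feed against 0.0465, 0.164 and 0.152 FPKM with Limnodrilus, or 0, 8 and 93 reads against 1, 5 and 4, so its level rested on 1 library (log2 fold change -0.95, 95% interval -2.51 to 0.60, limma adjusted p = 0.352, and -0.14 without commercial feed library 3). The second PD-1 ligand 1-like locus, LOC117420844, was highest in the same library at 0.654 FPKM and at 0.157 FPKM or less in the other 5. The PD-1 ligand 2-like locus LOC117967861 was at 0.259, 0.43 and 0.969 FPKM against 1.33, 1.22 and 1.40, below the level for testing. All 3 VTCN1 loci stayed under 0.5 FPKM in every library. LOC117406740 had 0 reads in the 3 commercial feed libraries and 5, 3 and 1 reads with Limnodrilus, and the locus named vtcn1 was above 0 in Limnodrilus library 2 alone, at 0.413 FPKM.

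Receptors, partners and relatives of the family were counted in the same fit, where 14% of all tested features rose and 3.64% fell. Of 17 tested features of the B7 and CD28 checkpoint list (11 of 14 proteins matched), 0 rose, 1 fell and 16 missed the threshold. Their median log2 fold change was -0.38. The fall was at a locus like tumor necrosis factor receptor superfamily member 14, which is known in mammals as a ligand of the receptor BTLA. This locus, LOC117425014, went from 12.6, 32.5 and 72.7 FPKM to 8.65, 4.82 and 5.84 FPKM (-2.15 ± 0.60, SE; limma adjusted p = 0.0464), which did not pass once commercial feed library 2 was left out (adjusted p = 0.116) and without each Limnodrilus library (0.103 to 0.15), with TPM (0.0666) and with no filter (0.0787). Of 174 tested TRIM and other B30.2 relatives 2 rose, 1 fell and 171 missed the threshold. The median was -0.13, and 156 were highest of the feed group in library 3. The 2 rises were the zinc-binding protein A33-like locus LOC117405440, at 1.80, 0.415 and 0.246 FPKM against 2.98, 4.04 and 5.64, and the TRIM25-like locus LOC117433181, at 0.194, 0.147 and 1.79 against 2.35, 4.88 and 5.50. Both averaged under 1 FPKM with commercial feed (0.821 and 0.711) and were tested only through their Limnodrilus level. Each call held in 1 of the 6 omissions of a library. Neither passed under median-of-ratios scaling (limma adjusted p = 0.0767 and 0.053), quantile normalization (0.0823 and 0.0542), limma-voom (0.0776 and 0.0647) or no filter (0.0714 and 0.0813).

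Markers of the cells that these ligands meet were compared by their lists. Of 11 tested T cell and intraepithelial lymphocyte features, 7 B cell features and 18 macrophage and leukocyte features, 0 passed, with median log2 fold changes of -0.35, 0.09 and 0.19. The CD3 epsilon locus LOC117397305, a chain of the T cell receptor complex, was at 1.41, 3.56 and 18.4 FPKM against 1.30, 1.73 and 4.65 (adjusted p = 0.454), and the allograft inflammatory factor 1-like locus LOC131709091, a macrophage marker, at 6.84, 13.6 and 78.3 against 9.64, 9.46 and 16.7 (adjusted p = 0.548). Both were highest in commercial feed library 3. In the interferon list 8 of 45 tested features rose and 0 fell, where 14% of all tested features rose and 3.64% fell. The median was 0.43, against 0.24 over all tested features. That list was matched by name, and its rises include an interferon regulatory factor 2-binding protein locus, LOC117402189, and the interferon regulatory factor 6-like LOC131702153. In the enterocyte brush-border list 3 of 17 rose and 0 fell, with a median of 2.04 and summed levels of 77.5, 501 and 3350 FPKM against 1900, 9210 and 3680 FPKM. Of all 41 tested butyrophilins 13 rose and 1 fell, beside 14% and 3.64% of all tested features. On NC_081232.1, 1 of 6 tested butyrophilins rose and 0 fell, with a median log2 fold change of -0.32. The 35 tested butyrophilins outside that sequence, of which 12 rose and 1 fell, therefore leave out loci that leaned the other way. Of these 35, 12 averaged under 1 FPKM with commercial feed and 1 with Limnodrilus. Those loci were tested only through the diet in which they were high. Butyrophilins outside NC_081232.1 summed to 88.3, 154 and 316 FPKM against 209, 238 and 294 FPKM. Their sums and those of the brush-border list were thus both lowest in commercial feed libraries 1 and 2, and the part of epithelial content in the butyrophilin levels was not tested.

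**Figure D4:**
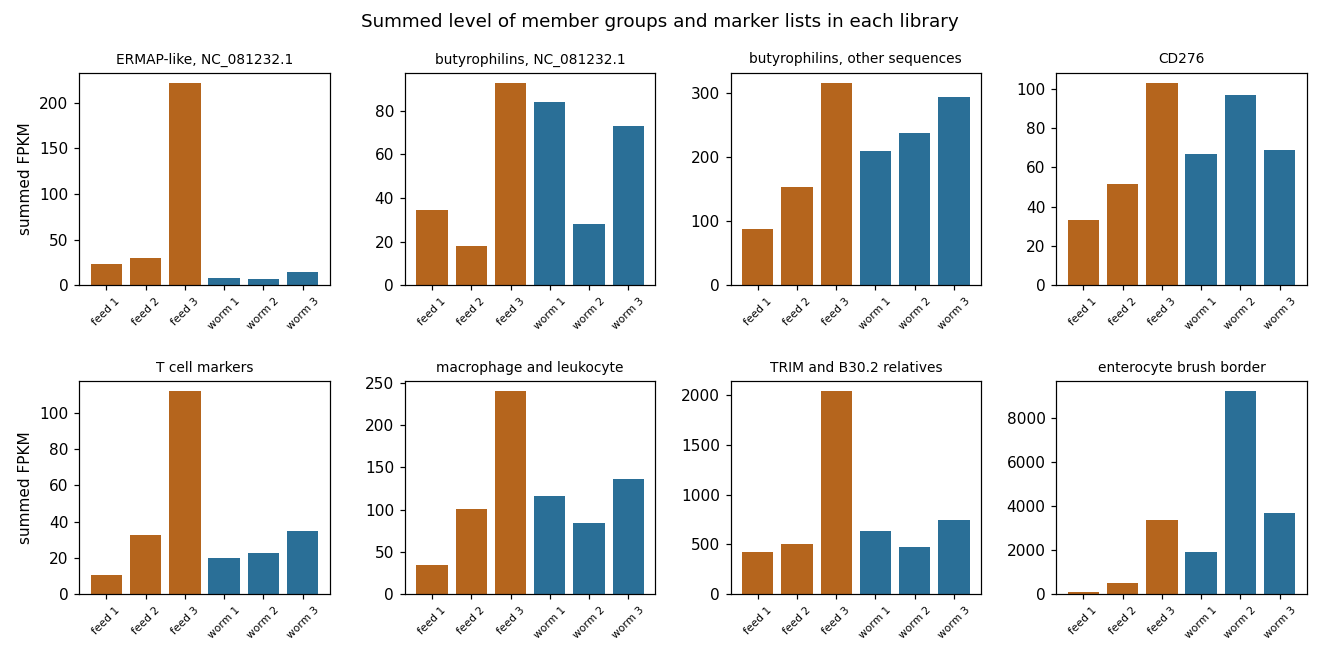
Summed FPKM in each library for 4 groups of members (upper row) and 4 marker lists (lower row), with commercial feed libraries in brown and Limnodrilus libraries in blue, and axes that start at 0. ERMAP-like loci of NC_081232.1 are at 222 FPKM in commercial feed library 3 and at 7.16 to 29.9 FPKM in the other 5, and the T cell, macrophage and TRIM lists are also highest in that library.

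Across the family, commercial feed library 3 was above libraries 1 and 2 for 50 of the 60 tested members, where the share over all tested features was 49.2%. The median difference of library 3 from the mean of the other 2, on the log2(FPKM + 1) scale, was 1.17 for the tested members, 2.70 for the ERMAP-like loci, 0.51 for CD276 and 0.30 for all features. Of the 15 members that rose, 11 were highest of their commercial feed values in that library, that is, nearest to the Limnodrilus level there. Among the commercial feed libraries it was the highest in T cell markers (10.5, 32.4 and 112 FPKM in libraries 1, 2 and 3). It was also the highest in brush-border markers (77.5, 501 and 3350 FPKM). The part of either in the levels of these members was not tested. Members summed to 184, 257 and 764 FPKM with commercial feed against 388, 392 and 474 FPKM with Limnodrilus, so the total was not ordered by diet. The share taken by subfamily 1 was 40.9%, 24.4% and 27.6% against 52%, 41.8% and 50.2%.

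Members below the level for testing had few reads. Of the 87, 30 reached 1 FPKM in at least 1 library and 83 were above 0 in at least 1. Of these 83, 18 (21.7%) were at 0 in all 3 commercial feed libraries and 0 in all 3 Limnodrilus libraries. The shares over all 17388 untested features above 0 in a library were 22.8% and 4.86%, and the Limnodrilus libraries were the deeper ones. For a length of 1 kb, 3 reads were worth 0.286 to 0.302 FPKM with commercial feed and 0.153 to 0.216 FPKM with Limnodrilus, a floor that covers counting error only, so a value of 0 allows a level up to about that size. The highest mean among them was 0.995 FPKM.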

How the data were processed

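The values are FPKM that the authors deposited in 1 table with a length and coordinates for each feature. The submitters' processing notes list cutadapt 1.9 and mm10, a genome build of the mouse, to which the sequence names of the table do not belong. Assembly, aligner, counting tool and strand setting: not given in the sources used here. Coordinates stand as in the table. FPKM times length was a whole number of reads, within 0.1, for 100% of values up to 20 reads and for 91.74% to 95.71% of all values, which gave the reads and depths. log2(FPKM + 1) of features averaging 1 FPKM or more was fitted with limma 3.58.1 in R 4.3.3 (empirical Bayes trend, 2-sided). An exact permutation test of 3 against 3 libraries could not go below p = 0.1 and was not used. The test was tried on simulated data. Members, marker lists and the naming rule were chosen with earlier results of these data known. Named were, in each direction, the 12 called members of largest fold change, the most abundant member and the most changed called member of each class, the 10 most abundant members, and for each marker list up to 3 called features and the most abundant one. Other loci named were chosen after their values were seen. Marker lists were matched at the start of the product name, which also takes relatives such as transgelin-2. Alternatives were pseudocount, filter, scaling, variance model, limma-voom on recovered reads, thinning to 9.948 M reads, the replicate block and omission of libraries. No sequences were printed, and no genome was used here.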

Additional observations from a re-analysis of the deposited data

How the results depend on the processing

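Requiring a mean of 5 FPKM left fewer features to test, of which 2625 passed in place of 4182. It left 26 members in place of 60, of which 5 were higher in place of 15, and 2 were lower. The replicate number as a block gave 2607 features, 12 members higher and 2 lower. Libraries of the same number had correlations of their deviations of 0.187, -0.0692 and 0.0747, so the numbers were not taken to pair samples. Under the block LOC131709051 (adjusted p = 0.0511), LOC117425014 (0.0621) and LOC117405440 (0.0677) did not pass. Limma-voom gave 8 members higher. Members lower numbered 0 with no filter, 1 with TPM and 4 with quantile normalization, in place of 2. Leaving out 1 library gave 638 to 6295 features, 1 to 29 members higher and 0 to 4 lower. Without commercial feed libraries 1 and 2 together 5 members were higher and 13 lower, and the smooth muscle actin locus LOC117415956 turned from -0.03 to 2.26, where the fit holds 1 library of that diet. The causes were not tested. Limma without trend, robust limma-trend, thinned reads and a pseudocount of 0.1 kept all 3 counts within 1.5 times. Loci under about 0.3 FPKM with commercial feed rest on few reads.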
